A study of Mus musculus with 21 samples.

Results

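Binding peaks of the transcription factor p53 (gene Trp53) were examined at 7 genes of the loops through which p53 regulates itself: Mdm2, Mdm4, Ccng1, Ppm1d, Rchy1, Trp53inp1 and Trp53. They are 7 of the 49980 genes placed on the mouse genome by RefSeq and were chosen for their known roles in feedback on p53. The choice was made with earlier results of these data known. A peak was counted for a gene when the deposited annotation named that gene for it, or when it lay within 5 kb of the gene's span on mm10. Protein-DNA contacts were mapped by CUT&RUN, in which an antibody guides a nuclease to the chromatin where its target protein sits, and the freed fragments are sequenced. The cells were ID8, a line from the ovarian surface epithelium of C57BL/6 mice, immortalized, not treated and growing asynchronously. One group had intact Trp53 (Trp53+/+, WT) and the other lacked it (Trp53-/-, KO), with 2 p53 samples in each. The labels do not say whether the KO cells were 1 clone. Each genotype had 1 deposited list, of 6811 peaks for WT and 9784 for KO cells, and a further list held 2127 peaks that the authors call WT-specific. No value below therefore has a replicate check, and no test across samples could be made. The lists give positions only, with no height or read depth, so the depth behind each peak is unknown. Peaks do not measure expression, so the labelled tissue could not be checked against marker genes.

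p53 acts as a sensor of DNA damage and other stress, and its own level is held low in unstressed cells. Mdm2 is a ubiquitin ligase that marks p53 for destruction, and since p53 switches on the Mdm2 gene, the pair form a negative feedback loop. Mdm4 is a relative of Mdm2 that masks the activation domain of p53, Rchy1 (Pirh2) is another ubiquitin ligase for p53, and Ppm1d (Wip1) is a phosphatase that removes activating phosphates from p53 and from the kinases upstream of it. Ccng1 (cyclin G1) brings phosphatase 2A to Mdm2. Trp53inp1 works in the opposite direction, promoting the phosphorylation of p53 that favours cell death.

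Of the 7 genes, 5 had a WT-specific peak: Mdm2, Mdm4, Ccng1, Trp53inp1 and Trp53. This is 71.4% of the group, where 3.32% of all RefSeq genes and 4.93% of protein-coding genes had one. Since the genes were chosen with earlier results known, this difference was not tested. Rchy1 had a WT peak that was also present in KO cells, and Ppm1d had none in any list. By WT peaks of any kind 6 of 7 genes had one (9.05% of all genes, 13% of protein-coding genes). By KO peaks 2 of 7 were, Rchy1 and Trp53inp1 (11.4% of all genes, 16% of protein-coding genes). The 2 KO genes are too few to set apart from that background. In all, 11 WT peaks, 9 WT-specific peaks and 3 KO peaks lay at these genes, and the 9 WT-specific peaks were all among the 11 WT peaks.

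**Figure D1:**
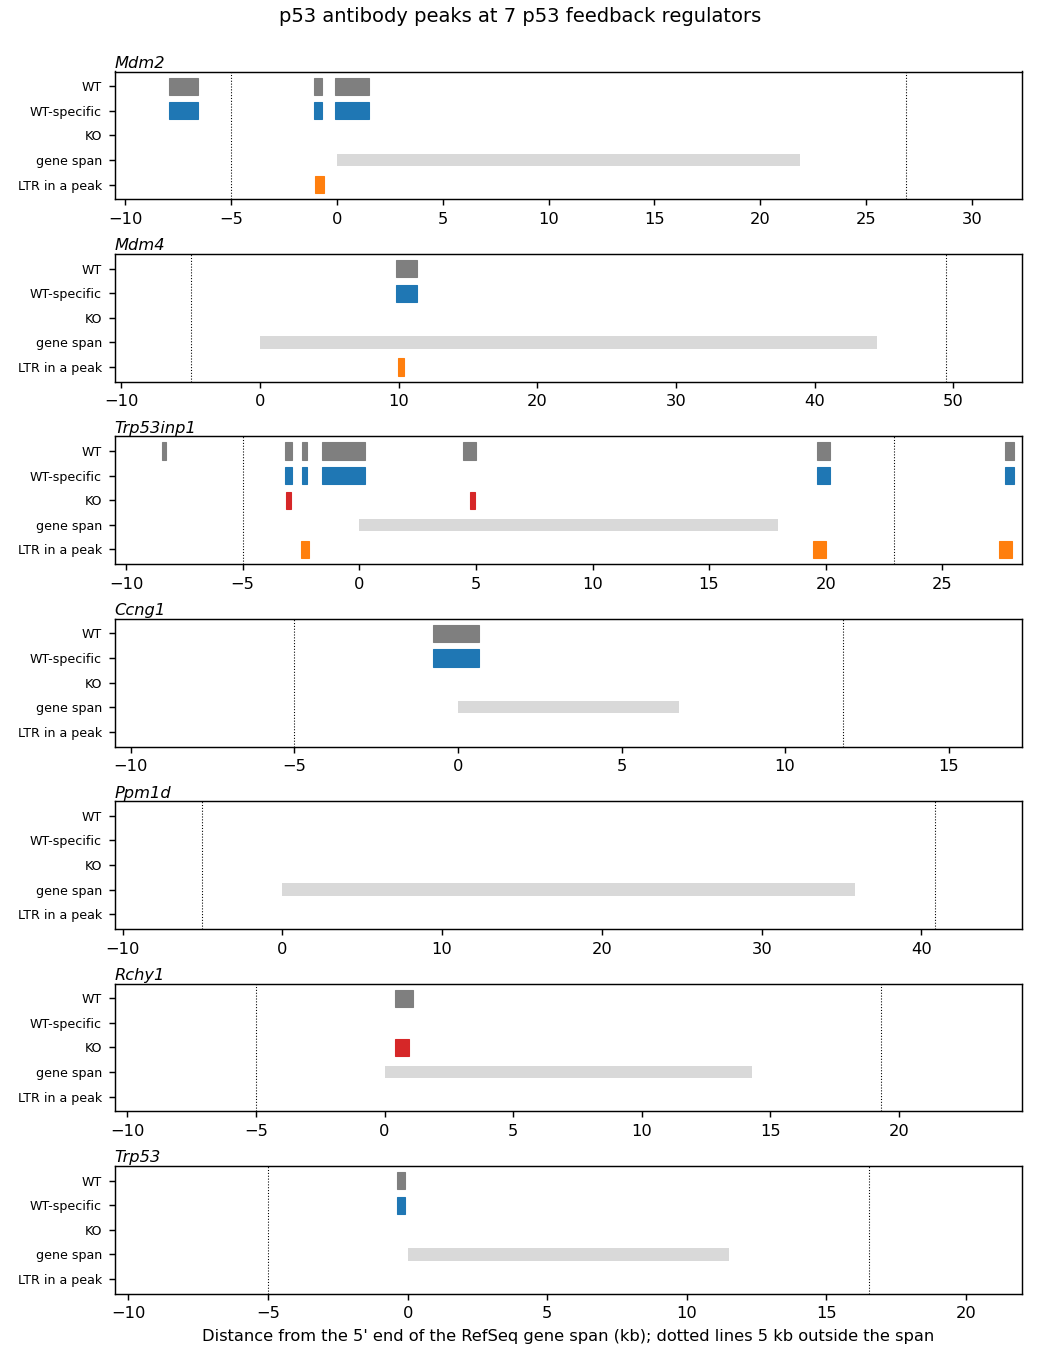
Peaks at each of the 7 genes, drawn by distance in kb from the 5' end of the RefSeq span (for Trp53inp1, whose strand was not in the table used, from the end that lies in its promoter-class peak). Grey, blue and red blocks are WT, WT-specific and KO peaks, orange blocks are LTR elements in a WT-specific peak, and dotted lines stand 5 kb outside the span. Blue blocks sit at or near the 5' end of Mdm2, Ccng1, Trp53inp1 and Trp53 and about 10 kb inside Mdm4, Rchy1 has grey and red blocks only, and Ppm1d has none.

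Proximal promoter sequences of Ccng1, Mdm2, Trp53 and Ppm1d are shown, with a complete p53 motif in each, at different distances from the peaks. Rchy1 also has such a motif, inside a WT and a KO peak, which is described below and not shown. p53 binds a pair of adjacent 10-base motifs. Each is made of 3 purines, a C, an A or T, another A or T, a G, and 3 pyrimidines. The motif reads the same on both strands. RefSeq promoter windows (GRCm38.p6, the assembly of mm10, from 250 bases before to 50 after a start) were in the table for 6 of the 7 genes, 8 windows in all, and not for Trp53inp1. Each stretch below is read 5′ to 3′ on the gene's own strand, ends at or before its RefSeq span, and has in capitals a complete 10-base motif or, at Ccng1, the pair of motifs.
Ccng1: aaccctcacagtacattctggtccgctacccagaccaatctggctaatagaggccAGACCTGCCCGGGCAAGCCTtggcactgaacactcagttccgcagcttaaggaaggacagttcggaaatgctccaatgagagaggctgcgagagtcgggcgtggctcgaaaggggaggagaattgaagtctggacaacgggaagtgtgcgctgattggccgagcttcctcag
Mdm2: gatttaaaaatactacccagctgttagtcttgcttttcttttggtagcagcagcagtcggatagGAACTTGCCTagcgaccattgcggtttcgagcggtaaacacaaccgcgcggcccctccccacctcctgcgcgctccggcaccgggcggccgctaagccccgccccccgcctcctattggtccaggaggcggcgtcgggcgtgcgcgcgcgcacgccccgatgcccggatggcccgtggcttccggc
Trp53: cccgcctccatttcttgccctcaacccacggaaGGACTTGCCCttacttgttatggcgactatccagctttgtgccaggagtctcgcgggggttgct
Ppm1d: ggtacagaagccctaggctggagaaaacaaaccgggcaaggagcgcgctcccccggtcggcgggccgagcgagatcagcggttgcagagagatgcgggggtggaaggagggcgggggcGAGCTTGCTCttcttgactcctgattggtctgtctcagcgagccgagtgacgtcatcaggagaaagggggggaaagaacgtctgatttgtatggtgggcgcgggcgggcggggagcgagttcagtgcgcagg
The Ccng1 stretch is chr11:40755310-40755536 on the minus strand, and all 227 bases lie in its WT-specific peak. The Mdm2 stretch is chr10:117710759-117711008 on the minus strand, and the last 70 of its 250 bases lie in the longer Mdm2 peak. The Trp53 stretch is chr11:69580251-69580347 on the plus strand, and the first 21 of its 97 bases lie in the Trp53 peak. It leaves out the upstream part of the Trp53 window, which began at position 69580109. Of the whole window of 300 bases, 163 lay in the peak. The Ppm1d stretch is chr11:85311004-85311253 on the plus strand, and no base of it lies in a peak.

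The Ccng1 promoter held a pair of motifs with no base between them, 1 mismatch in the first and 0 in the second. Its first base stood at -195 from the tabled start (negative positions are upstream), at chromosome 11, positions 40755462 to 40755481, inside the WT-specific peak. Of all 32851 promoter windows, 0.627% held a pair with so few mismatches when the C and G of each motif were fixed. That cutoff was set by the Ccng1 pair itself, which had the fewest mismatches of the 8 windows. The share therefore describes this pair and is no test of it. By the stricter rule of the plan, with C, A or T, A or T, and G fixed in both motifs and at most 2 other mismatches within a spacing of 0 to 13 bp, 0 of the 6 genes had a pair, and 2.12% of all windows did. The Ccng1 pair misses this rule by 1 base of the first core. With only C and G fixed and at most 2 mismatches in the other 16 positions, a rule chosen after seeing the data, Ccng1 alone of the 6 had one, against 4.09% of all windows.

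A complete single motif was in the promoter window of 5 of the 6 genes (5 of 8 windows), against 8.36% of all windows. Their places relative to the peaks differed between genes. The Ccng1 motif, GGGCAAGCCT, was in the WT-specific peak. The Rchy1 motif, GAGCTTGTCT at chromosome 5, positions 91962637 to 91962646, was in a WT peak and in the KO peak beneath it. The Trp53 motif, GGACTTGCCC, lay 13 bp beyond the end of the Trp53 peak. The Mdm2 motif, GAACTTGCCT, lay 107 bp from the nearest WT-specific peak, between the pair of Mdm2 peaks. The Ppm1d motif, GAGCTTGCTC, lay 40102 bp from any WT peak. A match of letters is a description of the window and not a measured binding site, and peaks outside these windows were not searched.

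Among the ligases and inhibitors that hold p53 down, Mdm2 had 2 WT-specific peaks within 5 kb, both labelled as its promoter. The longer, of 1579 bp (chromosome 10, positions 117709250 to 117710828), ran from -70 to 1508 relative to the tabled start, and so covered the start and the first part of the gene. The p53-responsive internal promoter of Mdm2 is known to lie in its first intron, whose position was not in the tables used. It was longer than 98.7% of all WT-specific peaks. The shorter, of 361 bp (positions 117711466 to 117711826), ran from -1068 to -708 and was longer than only 28.9% of the list. No KO peak lay within 194509 bp of either.

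Mdm4 had 1 WT-specific peak, of 1513 bp (chromosome 1, positions 133019256 to 133020768), longer than 98.2% of the list. Unlike the Mdm2 peak, it was away from both tabled starts of its gene. It began 4648 bases downstream of the nearer start, at position 133025416, and the outer start is at position 133030587. The deposited annotation called this place a 5' UTR of Mdm4, and neither Mdm4 promoter window touched a WT peak. The nearest KO peak was 110067 bp away.

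Rchy1 had 1 WT peak, of 729 bp (chromosome 5, positions 91962023 to 91962751), across one of its 2 tabled starts, at position 91962556. A KO peak of 567 bp (positions 91962185 to 91962751) covered 77.8% of it and ended at the same base. The authors did not list it as WT-specific, and no WT-specific peak lay within 526427 bp of the gene. The antibody signal called at Rchy1 was thus present with and without Trp53. The peak also lies 131 bp from the neighbouring gene Thap6, whose span overlaps that of Rchy1. Of all WT peaks, 59.4% were overlapped by a KO peak, so this state is the common one in the WT list.

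Among the phosphatase arms, Ccng1 had 1 WT-specific peak, of 1415 bp (chromosome 11, positions 40754661 to 40756075), longer than 97.7% of the list. It was labelled promoter and ran from -789 to 625 relative to the tabled start, at position 40755286, with the motif pair inside. The nearest KO peak was 151970 bp away. Ppm1d (chromosome 11, positions 85311254 to 85347071) had no peak of any list within 20 kb. Its nearest WT and WT-specific peak was the same interval, of 426 bp and intergenic, 40234 bp from the gene, and its nearest KO peak was 153742 bp away. A gene without a WT-specific peak is the common case, as the 4.93% of protein-coding genes with one shows. Since depth is unknown, no called peak does not show that p53 was not bound.

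Trp53inp1, the arm that strengthens p53, had 4 WT-specific peaks within 5 kb, the most of the 7 genes. The deposited annotation gave it only 1 of them and called the other 3 intergenic. The labelled promoter peak, of 1842 bp (chromosome 4, positions 11154826 to 11156667), was the longest at any of these genes and longer than 99.2% of the list. It covered the lower end of the gene's span (positions 11156441 to 11174379). Beyond that end lay peaks of 250 bp (positions 11153960 to 11154209) and of 298 bp (positions 11153256 to 11153553), at 2232 and 2888 bp from the span. The fourth, of 545 bp (positions 11176070 to 11176614), lay 1691 bp beyond the other end, inside the span of the noncoding gene A630034I12Rik. Across the genome, 3 of 49980 genes had 4 or more WT-specific peaks within 5 kb. Those with 3 or more numbered 26, and those with 2 or more 188, Mdm2 among the latter. Syn3 with 9 and Timp3 with 4, the others with 4 or more, overlap each other on chromosome 10. A KO peak overlapped 1 of the 4 Trp53inp1 peaks, as described below, which leaves 3 without such overlap. The genome-wide counts keep peaks with a KO overlap.

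Trp53inp1 was also the only one of the 5 genes with KO peaks within 5 kb. A KO peak of 234 bp lay inside the 298 bp peak and covered 78.5% of it, although the authors listed that peak as WT-specific. This was 1 of the 9 WT-specific peaks at these genes (11.1%, 95% exact binomial interval 0.281 to 48.2), where 3.34% of the whole list was overlapped by a KO peak. A further WT peak of 588 bp inside the gene (positions 11160874 to 11161461) was overlapped over 38.1% of its length by a KO peak of 224 bp and was not on the WT-specific list. The promoter peak itself had its nearest KO peak 1306 bp away. Intervals here and below treat peaks as independent draws and cover counting error only.

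At Trp53 the WT-specific peak was short, 293 bp (chromosome 11, positions 69579979 to 69580271), and only 20.7% of the list was shorter. It was labelled promoter of Trp53 and ended 77 bp before the gene's span and 88 bases before its tabled start. It covered, however, a tabled start of Wrap53, the gene on the opposite strand, at position 69580250. By position alone the contact cannot be given to Trp53 rather than to Wrap53. The nearest KO peak was 52192 bp away, and since the lists give presence only, they do not measure the deletion of Trp53.

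The 9 WT-specific peaks fell into separate size ranges, with 4 of 1415 to 1842 bp and 5 of 250 to 545 bp. The 4 long peaks were at 4 different genes, Mdm2, Mdm4, Ccng1 and Trp53inp1. None was overlapped by a KO peak, which is the common case, since only 3.34% of the whole WT-specific list was. In the whole WT-specific list 7.33% of peaks exceeded 1000 bp, and 14.5% of its promoter-class peaks did. Among all 237 WT peaks longer than 1000 bp, whether on the WT-specific list or not, 99 were overlapped by a KO peak. The median over the 9 was 545 bp, against 454 bp for the whole list (middle 50% from 335 to 637.5 bp). Over the 6 peaks labelled with one of these genes it was 1464 bp. Length is the extent of a called interval and is no measure of how much p53 was bound.

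**Figure D2:**
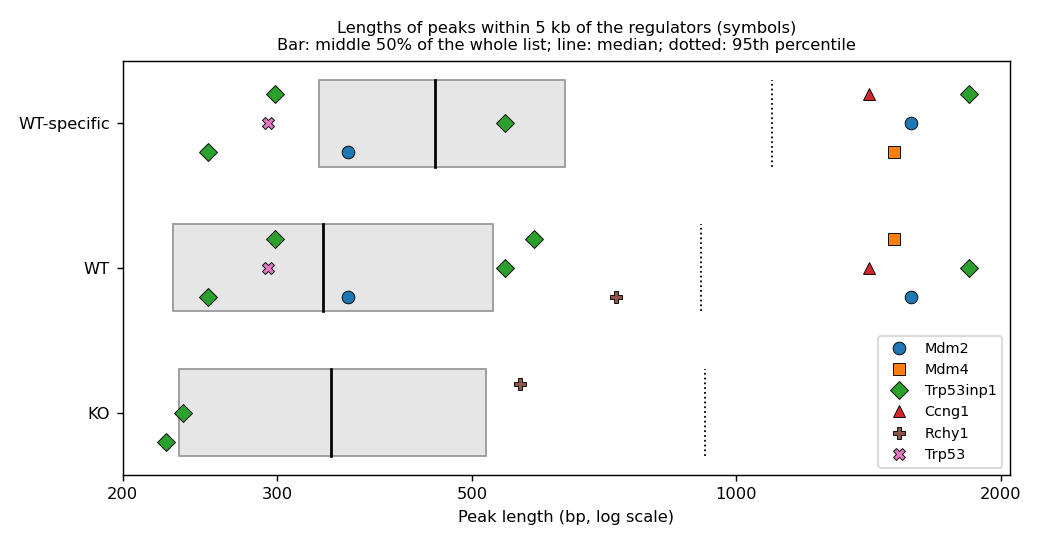
Length in bp (log axis) of each peak within 5 kb of the 7 genes, 1 symbol per peak and 1 symbol shape per gene, in the WT-specific, WT and KO lists. Grey bars span the middle 50% of the whole list, solid lines its median and dotted lines its 95th percentile. The Mdm2, Mdm4, Ccng1 and Trp53inp1 peaks of 1415 to 1842 bp stand to the right of the dotted line, while the KO peaks at these genes stay at 567 bp and below.

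Long terminal repeats (LTRs), the ends of endogenous retroviruses, were in 4 of the 9 WT-specific peaks (44.4%, 13.7 to 78.8), close to the 46.8% of the whole list. Their genes were Mdm2 with 1, Mdm4 with 1 and Trp53inp1 with 2, so 3 of the 5 genes with a WT-specific peak had an LTR, where 35.8% of the 1659 genes with such a peak had one. Over all RefSeq genes the share was 1.19%. With 5 genes, 3 are too few to set apart from that share. Ccng1 and Trp53 had no LTR in their peaks, and the Trp53 peak was the only one of the 9 with no repeat of any class. In the whole list 67.9% of peaks held a repeat, so a peak without one is not unusual.

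Mdm2 and its relative Mdm4 had an LTR of the same name, RLTR23, a class I (ERV1) element. It was in 100 of the 2127 WT-specific peaks. Most of these were intergenic (59) or intronic (26), while 10 were promoter-class and 2 were 5' UTR. The place of the element in the peak differed between the genes. At Mdm2 it was in the shorter peak, where 305 bp of the 397 bp element (positions 117711374 to 117711770, minus strand) made up 84.5% of the peak. The midpoint of that peak lay 124.5 bp inside the 5' end of the element, against a median of 91.5 bp over the 100 RLTR23 peaks (middle 50% from 58.8 to 119.8 bp). At Mdm4 the whole element, 381 bp (positions 133020226 to 133020606, plus strand), made up 25.2% of the 1513 bp peak. The midpoint lay outside the element, at -213.5 bp from its 5' end, the lowest of the 100. The longer Mdm2 peak, over the start, had no LTR and held only a low-complexity stretch of 112 bp.

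At Trp53inp1 the LTRs were in 2 of the outlying peaks and not in the promoter peak. The 250 bp peak lay whole inside an MLT1G1 element of the ERVL-MaLR family, the only WT-specific peak on an element of that name. The 545 bp peak beyond the gene overlapped RLTR1A2_MM, an ERV1 element, over 72.5% of its length, with its midpoint 122.5 bp inside the 5' end. RLTR1A2_MM was in 3 WT-specific peaks in all, and a second of these, of 388 bp, lay 9738 bp beyond Trp53inp1, with its midpoint at 140 bp. The promoter peak held a URR1B DNA transposon over 8.63% of its length, and the 298 bp peak with the KO overlap held an ID_B1 SINE.

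**Figure D3:**
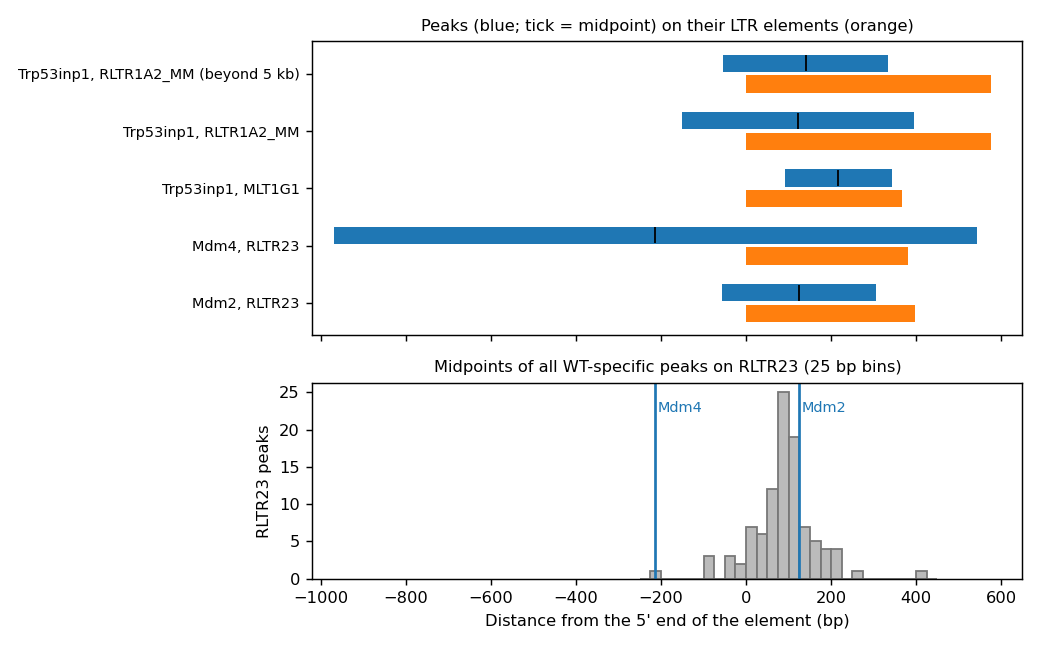
Upper panel, each WT-specific peak with an LTR near Mdm2, Mdm4 and Trp53inp1 (blue, black tick at the midpoint) above its element (orange), aligned at the 5' end of the element, in bp. Lower panel, number of the 100 WT-specific RLTR23 peaks by midpoint in 25 bp bins, with vertical lines for Mdm2 at 124.5 bp, near the bulk, and Mdm4 at -213.5 bp, at the low end.

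Other regulators of p53 were counted in the same way, from 4 lists of 65 genes. A WT-specific peak lay within 5 kb of 4 of them (6.15%), near the 4.93% of protein-coding genes. Over the 65 genes together, WT peaks were at 9 (13.8%) and KO peaks at 12 (18.5%), against 13% and 16% of protein-coding genes. Of 15 other ubiquitin ligases and deubiquitinases, among them Cop1 and Usp7, 0 had a WT-specific peak, and of 14 p53 relatives and cofactors 0 did. Of 23 kinases, acetyltransferases and other modifiers 2 did, and of 13 genes of the Arf and ribosomal protein arm 2 did. By list, KO peaks were at 1 to 6 genes, counts too small to compare. They lay at 6 of the 14 relatives and cofactors (42.9%), namely Bcl6, Ccng2, Jmy, Ppp1r13b, Ppp1r13l and Trp53i11, of which Bcl6 and Ppp1r13l also had a WT peak. They lay at 1 of the 15 ligases and deubiquitinases (Cop1), at 3 of the 23 modifiers and at 2 of the 13 genes of the Arf and ribosomal protein arm. WT peaks lay at 0, 5 and 2 genes of these 3 lists. The KO share of the relatives and cofactors, in cells without Trp53, was above the 16% of protein-coding genes. It was the highest of the 4 lists and was not tested.

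The 4 genes with a WT-specific peak had shorter peaks than the long ones of Mdm2, Mdm4, Ccng1 and Trp53inp1. The remaining peaks at the 7 feedback genes, of 250 to 545 bp, were in turn shorter than those of Rps27l and Bmi1. Rps27l, a ribosomal protein that binds Mdm2, had a promoter peak of 858 bp (chromosome 9, positions 66945990 to 66946847). Kat5 (Tip60), which acetylates p53, had one of 191 bp at its promoter. Plk3, a kinase of the damage response, had a peak of 209 bp at 3024 bp from its span, labelled Tctex1d4. Bmi1, a Polycomb protein that represses the Arf locus, had a peak of 618 bp at 3935 bp, labelled Commd3. None of these 4 peaks, all promoter-class, had an LTR or was overlapped by a KO peak. Of all promoter-class WT-specific peaks 16.7% had an LTR, and 3.34% of the whole list was overlapped by a KO peak. Neither absence therefore sets these 4 peaks apart.

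The counts at the 7 genes did not change when peaks as far as 20 kb were allowed. Under each distance from 1 to 20 kb, 5 genes had a WT-specific peak, 6 a WT peak and 2 a KO peak. The share of protein-coding genes with a WT-specific peak rose over the same range from 4.01 to 8.26%. With the span alone, 4 genes had a WT-specific peak, since the Trp53 peak ends before the gene.

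**Figure D4:**
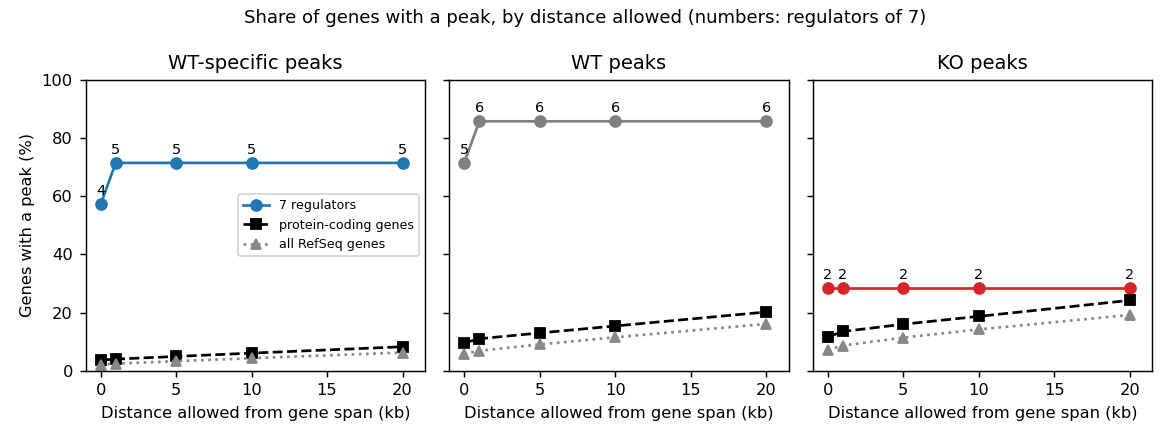
Share of genes in % with a WT-specific, WT or KO peak (3 panels), by the distance in kb allowed from the gene span. Coloured circles are the 7 regulators, with their number printed, black squares protein-coding genes and grey triangles all RefSeq genes. The regulators stay at 5 of 7 for WT-specific peaks from 1 to 20 kb, and at 2 of 7 for KO peaks, where the protein-coding share climbs to 24.2%.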

How the data were processed

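Peak positions came from 6 tables deposited by the authors, all for the p53 antibody, with start and end on mm10 and no score. Reads were handled with fastp, Bowtie2, MACS2 and deepTools, per the submitters' processing notes. How replicates were pooled, how WT-specific peaks were chosen, and tool settings are each not given in the sources used here, so those choices can set which peaks are listed. The histone and IgG libraries were not analysed here. Starts were read as 0-based and are printed 1-based. Among the tables, 4 held identical WT-specific intervals, with the gene class and repeats in separate tables. Without scores, length described each peak.

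Each peak was set against the RefSeq gene spans of GRCm38.p6 (49980 placed genes, 21900 protein-coding), with a gap of at most 5 kb, and lists were compared at an overlap of at least 1 bp. Named were all 7 members with every peak, and genes of the other lists with a WT-specific peak. Peaks sharing a gene are not replicates. Distances of 0 to 20 kb, label alone, stricter overlaps, longer peaks and looser motif rules were tried as alternatives. The members, lists and rules were chosen with earlier results of these data known. The promoter motif search used RefSeq sequence, and no genome was used here. Counting and motif search were tested on simulated data. Python 3.11.15, numpy 2.4.6, pandas 2.3.3, scipy 1.17.1 and matplotlib 3.10.9 were used, with bedtools 2.31.1 for the test of the counting.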

Additional observations from a re-analysis of the deposited data

How the results depend on the processing

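No paired analysis was possible because each genotype has 1 deposited peak list for its 2 samples, and for the same reason no replicate could be left out. The number of regulators with a WT-specific peak was 5, or 4 with the span alone or in the longer 50% of the list (Trp53 drops out in both), and the number with a WT peak was 6, or 5 with the span alone. Regulators with a KO peak fell from 2 to 1 in the longer 50% of the KO list, where Trp53inp1 drops out. A KO peak overlapped 1 of the 9 WT-specific peaks, and 2 had one within 500 bp. WT-specific peaks with an LTR numbered 4, and 3 where the LTR had to cover 50% of the peak or hold its midpoint. Promoters with a motif pair numbered 0, and 2 with 3 mismatches allowed (Mdm4 and Trp53), and 1 (Ccng1) with only C and G fixed. At 3 mismatches a pair is common under the looser rule, as 15.6% of all windows had one with only C and G fixed. The share of all windows under the stricter rule at 3 mismatches, by which the Mdm4 and Trp53 pairs were counted, is not given here. Neither the Mdm4 nor the Trp53 pair lay in a WT-specific peak. The other regulators with a WT-specific peak numbered 4, but 2 with the span alone or 1 kb. The median length of 545 bp became 1464 bp by label alone or within 1 kb and 1546 bp with the span alone, since these leave out the shorter outlying peaks. The rule with C and G fixed, and the distances and labels tried for lengths and other regulators, were chosen after seeing the data. Depth and peak height are unknown, so a missing peak may lie below the authors' threshold.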

Other observations

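Further WT-specific peaks lay outside the 5 kb limit at these genes. One of 1369 bp, longer than 97.6% of the list, lay 6560 bp upstream of the Mdm2 start (chromosome 10, positions 117717318 to 117718686). It was intergenic, with a B2_Mm2 SINE over 13.1% of its length and its nearest KO peak 187649 bp away. At Ccng1, a peak of 1046 bp lay 13867 bp away at the promoter of the neighbouring gene Nudcd2. At Rchy1, the next WT peak, of 222 bp, lay 11117 bp away, and a KO peak covered all of it.

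Over all promoter windows, a motif pair by the stricter rule was in 15 of the 163 windows that overlapped a WT-specific peak (9.2%), in 20 of the 1020 that overlapped a KO peak (1.96%) and in 2.12% of all windows. A complete single motif was in 20.2%, 8.14% and 8.36%. Base composition was not matched between these sets, and the windows of 1 gene can overlap.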
